A study of Caenorhabditis elegans with 30 samples.

Results

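The *col* genes are the *C. elegans* collagen genes that WormBase names *col-* and a number. Most are cuticle collagens, but the naming rule also takes in *col-99*, a transmembrane collagen of neurons. By that rule, 156 of the 19988 genes in the files were members, and their estimated counts, summed over the transcripts of each gene, are described here across all 30 libraries of the study and beside the level of the yolk genes. A cuticle collagen is a short secreted protein with Gly-X-Y repeats. Its chains form triple helices that are modified, cut and cross-linked into the extracellular coat made by the epidermis, and the animal replaces this coat at each molt. The genes are switched on in waves that follow the molting cycle, and some are used only at certain stages, such as the adult, the last larval stage or the dauer, a resistant larva. Yolk protein genes (*vit*) mark another program of the same animals, since the intestine of the hermaphrodite turns them on at adulthood.

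The study examined how *C. elegans* recognizes oomycetes through the receptor tyrosine kinase OLD-1 and the pseudokinase FLOR-1. RNA of whole animals, labelled L4 (the last larval stage), was sequenced from 10 groups of 3 libraries. Of these, 18 libraries made up the extract experiment, with *flor-1(icb93)* mutants, *old-1(ok1273)* mutants and wild-type N2, each with an extract of the oomycete *M. humicola* added for 4 h (flor-1_Ext, old-1_Ext, N2_Ext) and without it (flor-1, old-1, N2). Another 6 compared animals with OLD-1::GFP under its own promoter from the array *icbEx308* (old-1oe) with non-transgenic animals of the same strain (oe_control), and the last 6 compared animals with *old-1* under the epidermal *dpy-7* promoter from the array *icbEX359* (dpy) with animals that carry the hygromycin resistance marker alone, *icbEx360* (hyg). All animals were grown at 20 °C on OP50 bacteria after bleaching. Each array is 1 transgenic line, and arrays of this kind are lost from some cells of an animal. The labels give old-1oe the insertion *icbIs4* and oe_control the insertion *icbIs5*, which the strain list of the study describes as reporters that include the promoter of the member *col-12*. The study's strain list also places *icbIs5* in the *flor-1(icb93)* strain, which the labels do not state. Nothing in the labels says that the 3 libraries of a group came from separate cultures, so the tests measure the spread between these libraries, which may be technical.

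Libraries held 19214839 to 38956390 estimated counts. The 6 *flor-1(icb93)* libraries stood apart in the gap between transcript length and effective length, 154.6 to 165.4 bases against 239.8 to 273.4 bases in the other 24, so genotype and library type cannot be told apart in them. *old-1* had 0.789 to 1.14 CPM (counts scaled to library size with TMM factors, the scale used throughout) in old-1 libraries against 1.61 to 3.07 in N2, 40.7 to 60.1 in old-1oe against 0.578 to 1.01 in oe_control, and 52.4 to 82 in dpy against 1.19 to 1.62 in hyg. *flor-1* had 14.5 to 17.6 CPM in flor-1 libraries against 27.9 to 47.4 in N2. The *flor-1* level was as low in the hyg group, and the *old-1* level of the old-1 libraries was matched in oe_control, so neither total marks its mutant. RNA came from whole animals, in which fewer cells of a type and less RNA per cell cannot be told apart.

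The members lie on all 6 chromosomes, 41 on IV, 31 on V, 27 on X, 24 on II, 21 on I and 12 on III (WBcel235, Ensembl release 115). Their transcripts are 465 to 2833 bases long with a median of 1037 bases, and 104 members have 1 annotated transcript. In all, 50 members lie in 21 runs of neighbours no more than 10000 bases apart. On the scale of TPM, which divides by effective length and allows levels of different genes to be compared, the median over the 30 libraries was above 100 for 52 members, between 1 and 100 for 62 and below 1 for 42. The 10 most abundant members by median TPM were *col-3* (2110), *col-167* (1620), *col-117* (1600), *col-166* (1160), *col-73* (1040), *col-125* (1020), *col-144* (921), *col-107* (594), *col-147* (570) and *col-168* (552). These 10 together made up 7.17% to 55.6% of the *col* TPM of a library, so which collagens dominate differed widely between libraries. Non-whole estimated counts show that reads were divided between similar transcripts for 50 members in 6 or more libraries, among them *col-3*, *col-117*, *col-73*, *col-7*, *col-62*, *col-178* and the near-identical neighbours *col-12* and *col-13*, and the levels of such genes are less certain.

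The yolk level of a library, the mean log2 CPM of *vit-1* to *vit-6*, separated libraries that carry the same label. The N2_Ext libraries had -0.46 to 0.03, against -0.16, 7.15 and 8.07 for the N2 replicates A, B and C. The old-1_Ext libraries had -0.29 to 0.06, old-1 had -1.02 to -0.49, flor-1_Ext had 8.52 to 8.54 and flor-1 had 8.61 to 8.91. In the overexpression experiments, old-1oe had 8.95, 11.94 and 12.23, oe_control had 10.50, 10.32 and 6.10, dpy had 12.19 to 12.99 and hyg had 12.70 to 13.72. N2 replicate A thus sat with the N2_Ext and *old-1(ok1273)* libraries, while the other N2 libraries sat nearer to *flor-1(icb93)*. The oocyte genes, another adult set of 8, followed the same order in N2, with mean log2 CPM of 1.88, 4.51 and 4.95.

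Between groups, the *col* genes as a whole did not follow the yolk level. Their share of all counts was 3.08% to 3.38% in N2_Ext against 3.87%, 4.97% and 5.84% in the N2 replicates A, B and C. It was 3.37% to 3.82% in old-1_Ext against 3.76% to 3.97% in old-1, and 2.36% to 2.55% in flor-1_Ext against 2.24% to 2.52% in flor-1. It was 2.40% to 2.94% in old-1oe against 2.81% to 3.92% in oe_control, and 4.91% to 5.60% in dpy against 8.12% to 9.09% in hyg. The hyg libraries had the highest share and the *flor-1(icb93)* and old-1oe libraries low ones, although the yolk level was high in all of these. Within groups the order varied. The share rose with the yolk level in N2, N2_Ext, flor-1_Ext, oe_control and hyg, and it did not in the other groups. At least 1 CPM was reached by 94 to 101 members in the libraries with a yolk level near 0 and by 111 to 121 in the others.

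To relate each member to the yolk level without using the difference between groups, the level was fitted as a slope beside the 10 groups, so that the slope comes only from replicates of the same group. It gives the log2 fold change of a gene per 1 unit of yolk level. Genes were called here and below at p under 0.01 and adjusted p under 0.1 over all genes tested in edgeR's quasi-likelihood test. Over all 30 libraries, 28 of 147 tested members had a positive slope and 6 a negative one, against a background of 6.72% of all genes called positive and 7.75% called negative. The median slope was 0.04 over the members and -0.01 over all genes. The information was uneven: 66.9% of the within-group variation of the yolk level lay in the 3 N2 libraries and 31.1% in old-1oe and oe_control. Without N2 replicate A the counts were 27 positive and 27 negative, against 16.5% and 19.3% of all genes.

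For that reason the slope was also fitted within the extract experiment, where 99% of the variation lay in N2, and within the overexpression experiments, where 95.6% lay in old-1oe and oe_control. In the extract libraries 66 of 140 members had a positive slope and 11 a negative one, against 16.3% and 12.2% of all genes. In the overexpression libraries 23 of 144 had a positive slope and 17 a negative one, against 10.7% and 14% of all genes. Tested directly, the slope was more positive in the overexpression libraries than in the extract libraries for 7 members and more negative for 42 of 147, against backgrounds of 13.6% and 17% of all genes, in a test added after the data were seen. By the calls in the separate fits, 17 members had a positive slope in both experiments and 14 had a positive slope in the extract libraries with a negative one in the overexpression libraries. A further 35 were positive in the extract libraries alone, 10 negative in the extract libraries alone, and *col-46* was negative in both. These sets were formed from the slopes, so their levels below are a description.

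**Figure D1:**
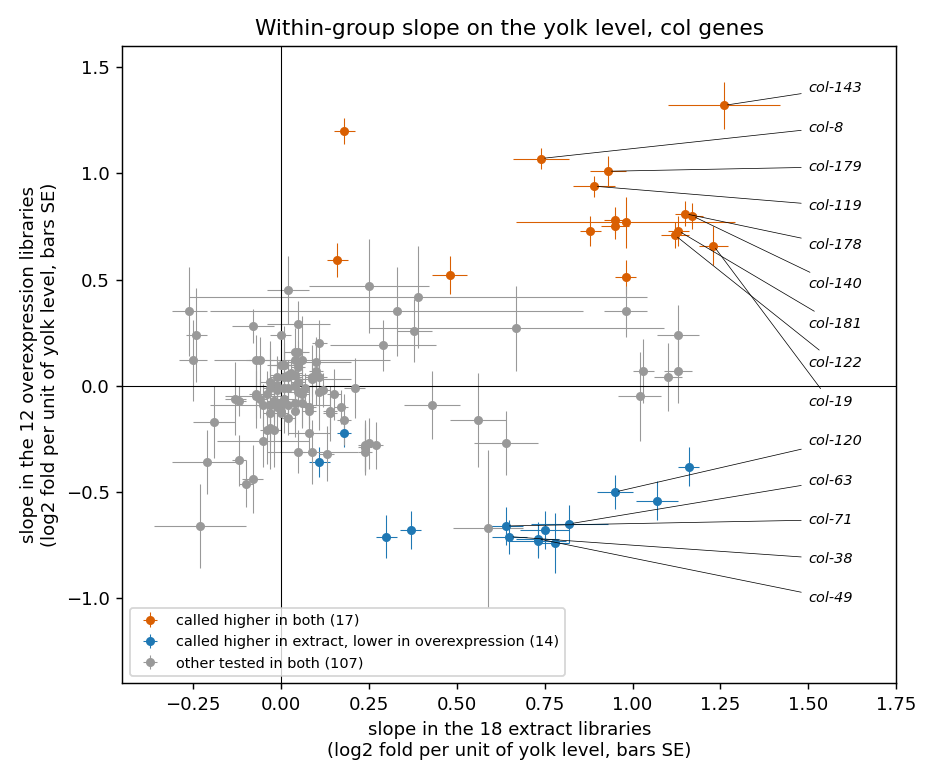
Within-group slope on the yolk level (log2 fold change per unit, bars SE) in the 12 overexpression libraries against the slope in the 18 extract libraries, for the *col* genes tested in both. The 17 genes called positive in both lie in the upper right quadrant and the 14 that turned from positive to negative in the lower right quadrant.

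The 17 members with a positive slope in both experiments were *col-8*, *col-19*, *col-20*, *col-80*, *col-96*, *col-101*, *col-106*, *col-119*, *col-122*, *col-124*, *col-135*, *col-140*, *col-143*, *col-178*, *col-179*, *col-181* and *col-184*. Among them *col-19* (X, 421707 to 422691) is the textbook collagen of the adult stage. Its level was 0.227, 124 and 265 CPM in the N2 replicates A, B and C, 0 to 0.275 CPM in N2_Ext, 0 to 0.196 CPM in the *old-1(ok1273)* libraries and 19.4 to 28.4 CPM in the *flor-1(icb93)* libraries. It was 87.4, 804 and 832 CPM in old-1oe against 199, 175 and 40.3 CPM in oe_control, and 1660 to 1909 CPM in dpy against 1975 to 3108 CPM in hyg. The order of *col-19* within N2, old-1oe and oe_control is thus that of the yolk level, with a slope of 1.23 (SE 0.04) in the extract libraries and 0.66 (SE 0.09) in the overexpression libraries. The next largest members of the set followed the same order, and *col-140* (V, 5835855 to 5836834) had slopes of 1.17 (SE 0.03) and 0.80 (SE 0.06).

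Summed over the 17 genes, the level was 32.3 to 40 CPM in N2_Ext against 58.7, 1896 and 3538 CPM in N2, and 455 to 558 CPM in the *flor-1(icb93)* libraries. It was 1566, 12346 and 14519 CPM in old-1oe against 4915, 4456 and 559 CPM in oe_control, and 23827 to 28882 CPM in dpy against 28012 to 48590 CPM in hyg. The set made up 0.103% to 0.17% of all *col* CPM in the libraries with a yolk level near 0 and 32.7% to 60.9% in the dpy and hyg libraries and old-1oe replicates B and C. At like yolk levels the sum still differed: the *flor-1(icb93)* libraries, at a yolk level of 8.52 to 8.91, lay below N2 replicate C, at 8.07. This difference cannot be assigned to genotype, since library type cannot be told apart from genotype in the *flor-1(icb93)* libraries and N2 replicate C is a lone library.

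A few members were low throughout the extract experiment and far higher in most overexpression libraries. *col-143* (V, 6835635 to 6836704) had 5.3 CPM in N2 replicate C and 0.279 to 0.433 CPM in the *flor-1(icb93)* libraries. The same gene had 68.6, 633 and 780 CPM in old-1oe against 398, 379 and 3.84 CPM in oe_control, and 601 to 810 CPM in dpy against 415 to 869 CPM in hyg. *col-101* (IV, 325435 to 327020) had 1.22 to 5.92 CPM in all 18 extract libraries, and 56.4 to 650 CPM in old-1oe against 7.02 to 372 CPM in oe_control. *col-95*, next to *col-96* on chromosome III, had at most 0.423 CPM in any library of the extract experiment but 29.4, 257 and 357 CPM in old-1oe against 228, 226 and 0.248 CPM in oe_control. It was too low to be tested in the extract libraries. Its slope over all libraries (1.46, SE 0.16) thus rests on the overexpression libraries, through which it passed the filter. In the overexpression experiments all of them were lowest in oe_control replicate C, the library of lowest yolk level there.

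The 14 members whose slope changed sign were *col-38*, *col-49*, *col-60*, *col-63*, *col-71*, *col-79*, *col-88*, *col-110*, *col-120*, *col-133*, *col-138*, *col-152*, *col-175* and *col-176*. *col-38*, *col-49*, *col-63* and *col-71* are described as collagens of the L4 stage. *col-38* (II, 8568035 to 8569088) had 60.7, 1990 and 2290 CPM in the N2 replicates A, B and C, 43.3 to 55.5 CPM in N2_Ext, 28.1 to 64 CPM in old-1_Ext and 10.7 to 17.2 CPM in old-1. It had 805 to 1071 CPM in the *flor-1(icb93)* libraries, 935, 224 and 91.1 CPM in old-1oe against 104, 166 and 807 CPM in oe_control, and 157 to 376 CPM in dpy against 595 to 862 CPM in hyg. Its slope was 0.65 (SE 0.05) in the extract libraries and -0.71 (SE 0.08) in the overexpression libraries, and the highest levels were those of N2 replicates B and C. *col-63* showed the same pattern, with 19.2, 1447 and 1653 CPM in N2, 677, 204 and 65.1 CPM in old-1oe and 51.8, 62.8 and 298 CPM in oe_control. Over the 14 genes the sum was 440 to 488 CPM in N2_Ext against 689, 10946 and 13336 CPM in N2, 4196 to 5298 CPM in the *flor-1(icb93)* libraries, 5206, 1564 and 593 CPM in old-1oe against 732, 1041 and 4005 CPM in oe_control, and 1428 to 3141 CPM in dpy against 6847 to 9046 CPM in hyg.

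**Figure D2:**
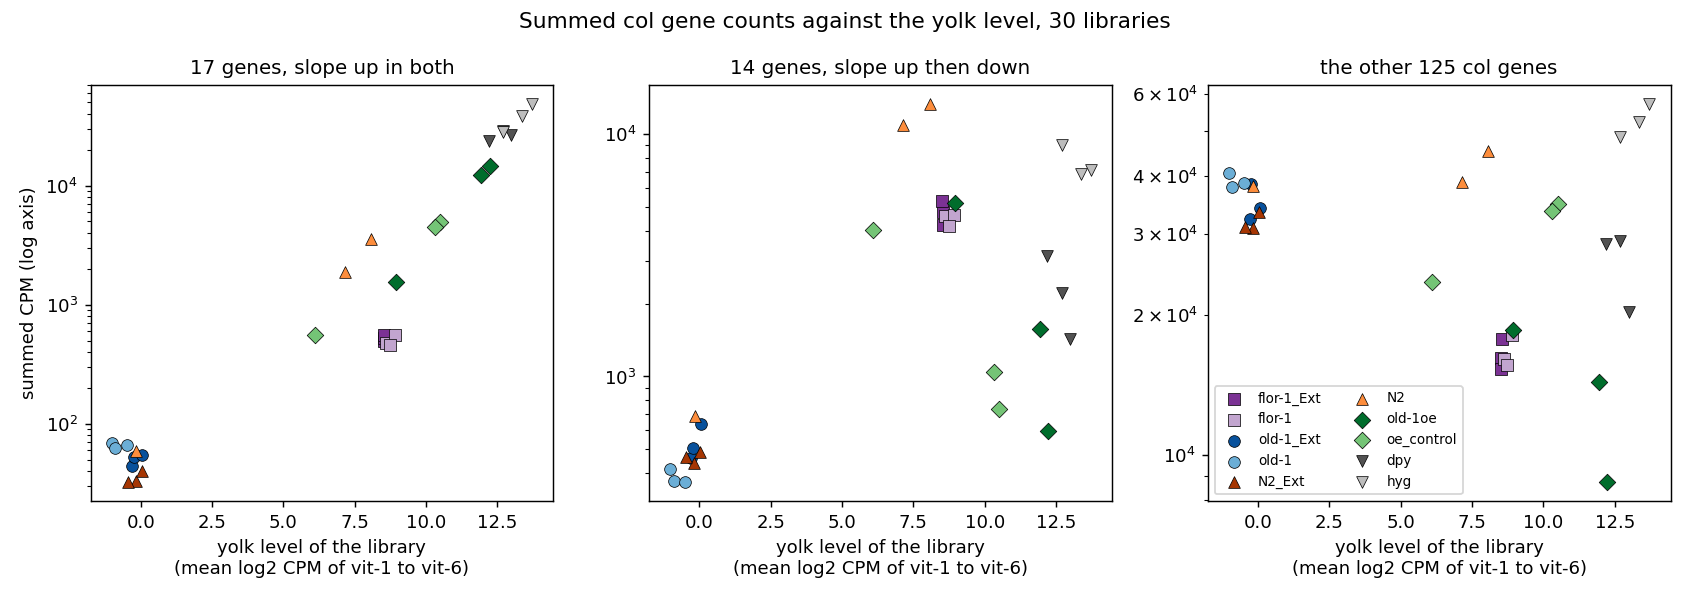
Summed CPM (log axes) of the 17 *col* genes with a positive slope in both experiments, of the 14 whose slope changed sign and of the other 125, against the yolk level of each of the 30 libraries (points, by group). The first sum runs from 32.3 to 48590 CPM and rises with the yolk level within N2, old-1oe and oe_control, the slope by which its genes were chosen. The *flor-1(icb93)* libraries, at 455 to 558 CPM, lie below N2 replicates B and C (1896 and 3538 CPM). The second sum is highest at 13336 CPM in N2 replicate C. It reaches 6847 to 9046 CPM in hyg but 593 to 1564 CPM in the old-1oe and oe_control libraries of yolk level above 10. The third sum rises with the yolk level within N2 and oe_control and falls within old-1oe.

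Another 3 members departed from the yolk order and were grouped after their values were seen. *col-7*, described as an adult collagen, and its neighbour *col-62* lie at I, 7401132 to 7404374, and shared reads. *col-7* had 0.114, 35.3 and 75.4 CPM in the N2 replicates A, B and C but 1.18 to 1.91 CPM in the *flor-1(icb93)* libraries, whose yolk level was higher. It had 2.24, 17.2 and 11.8 CPM in old-1oe against 3.7, 3.14 and 3.47 CPM in oe_control, and 101 to 169 CPM in dpy against 564 to 822 CPM in hyg. *col-137* (IV, 16601480 to 16602776) likewise had 41.6 and 80.1 CPM in the N2 replicates B and C, 0.186 to 0.326 CPM in the *flor-1(icb93)* libraries, 0.174 to 1.82 CPM in old-1oe and oe_control, and 22.1 to 52.1 CPM in dpy against 262 to 317 CPM in hyg. These genes were high in N2 replicates B and C and in the last experiment, and low in libraries of comparable yolk level elsewhere.

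Members with a negative slope in the extract libraries were *col-17*, *col-41*, *col-46*, *col-47*, *col-54*, *col-56*, *col-90*, *col-128*, *col-153*, *col-156* and *col-169*. *col-41* (X, 15175032 to 15176481) had 1268 to 1508 CPM in N2_Ext against 1476, 681 and 148 CPM in N2, 926 to 1058 CPM in the *old-1(ok1273)* libraries and 64.5 to 121 CPM in the *flor-1(icb93)* libraries. It had 60.6 to 125 CPM in old-1oe against 1123, 1018 and 151 CPM in oe_control, and 4.35 to 15.9 CPM in dpy against 4.9 to 23.5 CPM in hyg. In oe_control the 2 libraries with the higher yolk level had the higher *col-41* level, opposite to N2, and the slope there was 0.35 (SE 0.21, not called). *col-46*, at I near *col-47*, had slopes of -0.10 (SE 0.02) in the extract libraries and -0.46 (SE 0.11) in the overexpression libraries.

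Neighbours on a chromosome did not always share a slope. In the run of *col-17*, *col-20* and *col-73* at II, 4866436 to 4873129, the slopes in the extract libraries were called negative, positive and positive. In the run of *col-79*, *col-39* and *col-80* at II, 10703613 to 10708287, *col-80* was positive in both experiments, *col-79* changed sign and *col-39* was not called in either. *col-178* and *col-179*, at X, 11199455 to 11202485, were positive in both experiments, but they shared reads and are not separate evidence.

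**Figure D3:**
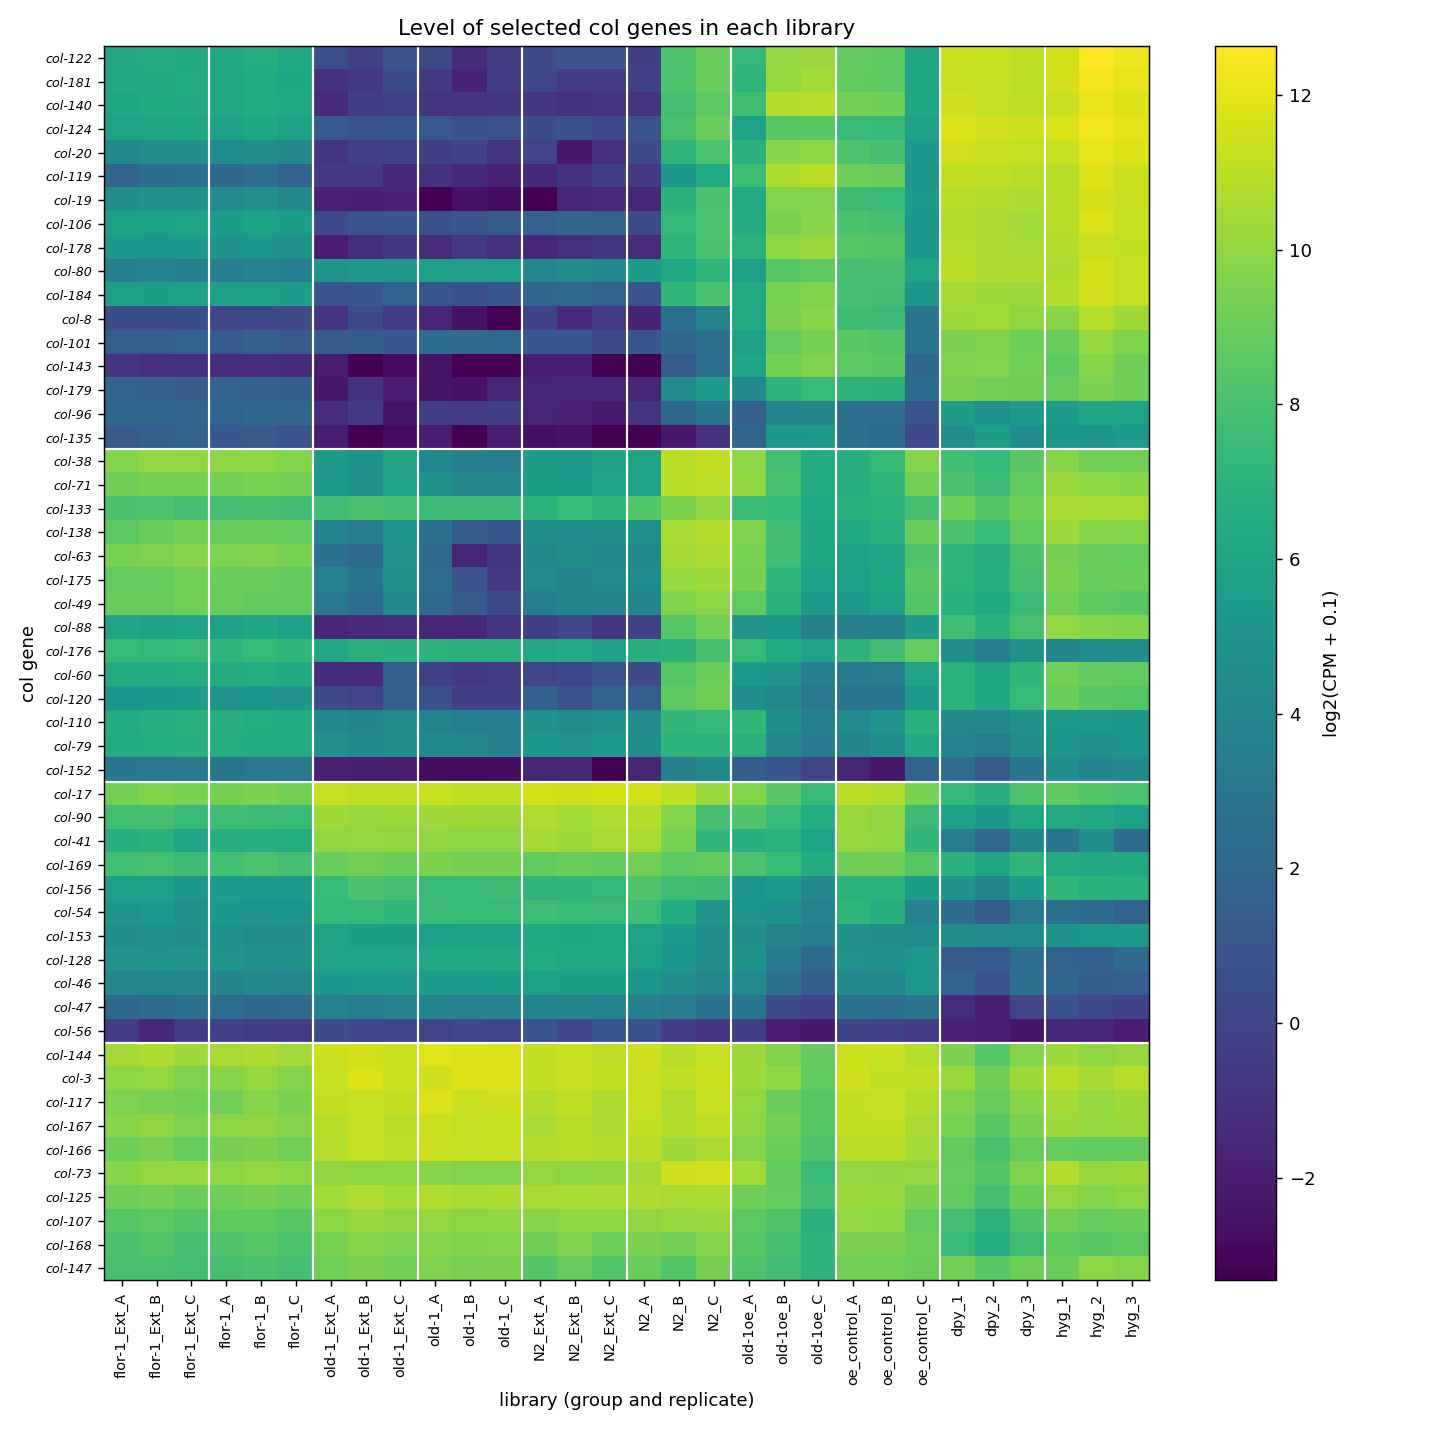
Level of 52 *col* genes (log2(CPM + 0.1), color) in each of the 30 libraries, in blocks ordered by mean CPM. From top to bottom these are genes with a positive slope in both experiments and genes whose slope changed sign. Below them are genes with a negative slope in the extract libraries, and the 10 genes with the highest median TPM. N2 replicates B and C differ from N2 replicate A in the upper blocks, as do old-1oe replicate A and oe_control replicate C from their groups.

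To ask how the *col* genes responded to *M. humicola* extract, N2_Ext was compared with N2. Of 140 tested members, 6 were higher with extract and 75 lower, against a background of 14.7% of all genes called higher and 20.4% called lower. The median log2 fold change was -0.76 over the members and -0.01 over all genes. Without overlap between the groups, 10 of the 156 members were above N2 and 40 below it, against 16.5% and 12.7% of all genes in the files. This comparison moved with the yolk level: 6 of 6 yolk genes, 8 of 8 oocyte genes and 3 of 3 sperm genes were also lower with extract. The summed sets above were high in N2 replicates B and C and not in replicate A. They were formed from slopes that rest on that same contrast, so they are no separate evidence for where the difference lay. The largest fitted falls, such as *col-19* (-9.46), *col-140* (-8.87) and *col-88* (-8.81), were in members whose groups overlapped. Among called members whose groups did not overlap, the largest falls were in members of those sets, *col-20* (-8.41), *col-124* (-7.64), *col-152* (-6.16), *col-138* (-5.57), *col-49* (-5.42), *col-175* (-5.35), *col-38* (-4.88) and *col-71* (-4.76), and none of these 8 was called when N2_Ext was compared with N2 replicate A alone. With only that replicate, 7 members were higher and 24 lower, against 8.07% and 6.91% of all genes, and the median was -0.13. With the yolk level as a covariate, 6 were higher and 16 lower, against 8.34% and 6.87% of all genes. Of the summed sets, this fit called *col-106* (1.51) and *col-184* (1.14) higher, and *col-80* (-1.19) and *col-133* (-1.11) lower. With all N2 libraries every fitted change was negative, the smallest being -1.21 in the set of 17 and -1.15 in the set of 14. Against replicate A alone *col-106* had 1.55, *col-184* 1.13 and *col-79* 0.57, while *col-80* had -1.25, *col-133* -1.14 and *col-176* -0.57. The comparison with replicate A alone was added after the data were seen, and in it the lone N2 library is assumed to vary like the other groups.

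*col-43* (V, 8049703 to 8050911, minus strand) was the member with the largest rise. It had 11.8, 8.59 and 11.9 CPM in N2_Ext against 0.189, 1.02 and 1.19 CPM in N2, means of 10.8 ± 1.88 against 0.8 ± 0.536 CPM (SD, n = 3 each). Every N2_Ext library was above every other library of the study, of which the highest was hyg replicate 2 at 4.55 CPM. The log2 fold change was 3.76 (SE 0.67, adjusted p = 6.05e-04), 5.58 with the yolk level as a covariate and 5.79 against N2 replicate A alone. *col-43* had 0.203 to 0.36 CPM in old-1_Ext against 0.0894 to 0.479 CPM in old-1, and 0.34 to 1.83 CPM in flor-1_Ext against 0.454 to 2.21 CPM in flor-1, and neither was called. Its extract response was lower in *flor-1(icb93)* than in N2 by a difference of -3.86 (SE 0.93, adjusted p = 0.00981). The difference for *old-1(ok1273)* was -3.65 (SE 1.24, adjusted p = 0.0322 in edgeR's test) and was not called, since the unadjusted p just missed its threshold. In old-1oe it had 0.8 to 2.21 CPM against 0.825 to 1.14 CPM in oe_control, and in dpy 2.86 to 4.33 CPM against 1.65 to 4.55 CPM in hyg, and neither comparison called it.

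*col-150* (V, 10293563 to 10294649) was lower with extract in both N2 and *old-1(ok1273)*. It had 7.48, 9.55 and 6.47 CPM in N2_Ext against 34.9, 44 and 62.7 CPM in N2, with all N2 libraries higher, including replicate A. The log2 fold change was -2.59 (SE 0.17, adjusted p = 3.83e-08) and -2.15 against N2 replicate A alone. It had 15.5 to 15.8 CPM in old-1_Ext against 36.8 to 40.5 CPM in old-1 (-1.29, SE 0.16, adjusted p = 3.27e-05). It had 14.3 to 14.7 CPM in flor-1_Ext against 13.1 to 14.6 CPM in flor-1 (0.10, SE 0.16, not called). The response was less negative than in N2 by 1.30 in *old-1(ok1273)* (SE 0.23, adjusted p = 8.7e-04) and by 2.69 in *flor-1(icb93)* (SE 0.24, adjusted p = 2.58e-06). The untreated *flor-1(icb93)* level was itself below that of N2, by a log2 fold change of -1.78 (SE 0.17, adjusted p = 6.48e-07).

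**Figure D4:**
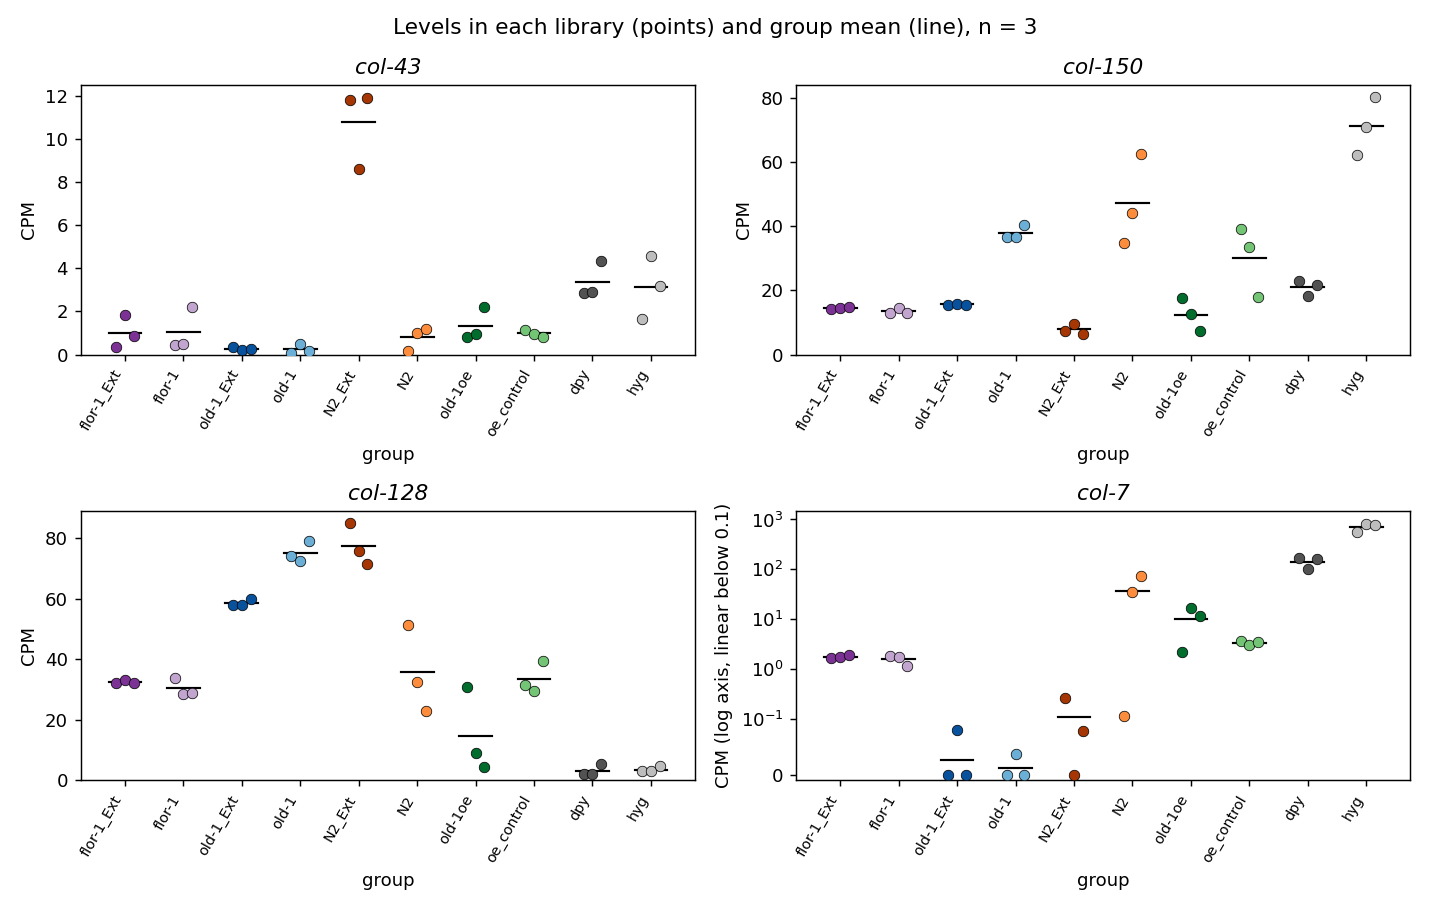
Levels of *col-43*, *col-150*, *col-128* and *col-7* (CPM; for *col-7* a log axis that is linear below 0.1) in each library (points) with the mean of each group (line, n = 3). The 3 N2_Ext libraries hold the highest *col-43* levels, 8.59 to 11.9 CPM, and *col-7* reaches 564 to 822 CPM in hyg.

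The other members called higher with extract in N2 were *col-128*, *col-46*, *col-153*, *col-47* and *col-75*. *col-128* had 85, 75.9 and 71.4 CPM in N2_Ext against 51.5, 32.6 and 23 CPM in N2, with no overlap (1.11, SE 0.19, adjusted p = 3.81e-04). *col-46* had 52.6, 49.6 and 46.3 CPM against 34.4, 22.1 and 17.7 CPM (1.0, SE 0.16, adjusted p = 3.15e-04). *col-153* and *col-47* rose by 0.75 and 0.63. All of these but *col-75* had a negative slope in the extract libraries, so the yolk level moved with them too, and against N2 replicate A alone *col-128* kept 0.59 and *col-46* kept 0.53, both called, as was *col-75*, while *col-153* (0.24) and *col-47* (0.27) were no longer called.

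In the mutants fewer members were called with extract. Between old-1_Ext and old-1, whose yolk levels were all between -1.02 and 0.06, 2 of 140 members were higher and 8 lower, against a background of 12.7% and 11.3% of all genes, with a median of -0.04. The split was 3 higher and 6 lower with RLE size factors, with a background of 13.2% and 11%. It was 8 higher and 5 lower with limma on log2(TPM + 1), with a background of 22.2% and 3.19%, and 9 higher and 16 lower with the yolk level as a covariate, with a background of 15.9% and 14.5%. The called falls besides *col-150* were *col-101* (-0.98), *col-158* (-1.16), *col-141* (-1.07), *col-142* (-0.90), *col-98* (-0.57), *col-10* (-0.40) and *col-149* (-0.40), and *col-115* rose by 0.38. *col-74* was the other member called higher, at a level below 1 CPM. Leaving out old-1_Ext replicate C gave 4 called members, leaving out any old-1 library gave 5 or 6, and leaving out the other old-1_Ext libraries gave 7 and 9. *col-142* lies beside *col-141* and *col-143*. It had 52.1 to 65.3 CPM in old-1_Ext against 97.6 to 115 CPM in old-1, and 32 to 57.9 CPM in N2_Ext against 55.5 to 114 CPM in N2.

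Between flor-1_Ext and flor-1, edgeR called 0 of 140 members, with a background of 0% of all genes in either direction. At an unadjusted p under 0.05 there were 2 members and 644 of all genes. DESeq2 and limma also called 0 members, while DESeq2 called 34 of all genes and limma 2. The median was 0.03 over the members. All 6 yolk levels lay between 8.52 and 8.91, so this comparison set libraries of similar yolk level against each other.

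The extract response of *old-1(ok1273)* was more positive than that of N2 for 52 members and more negative for 3, against a background of 18% and 13.1% of all genes, with a median difference of 0.71. That of *flor-1(icb93)* was more positive for 66 and more negative for 4, against 14.4% and 9.48%, with a median of 0.68. Both comparisons use the same 6 N2 libraries. The largest called differences were again those of genes far lower in N2_Ext and N2 replicate A than in the N2 replicates B and C, with *col-140* at 9.24 for *old-1(ok1273)* and 8.88 for *flor-1(icb93)*. Without N2 replicates B and C, the counts were 28 and 26 in place of 55 and 70, and the share of all genes in that setting is not given here. *col-128*, *col-46* and *col-75* were more negative in both mutants than in N2, at -1.48, -1.26 and -1.34 in *old-1(ok1273)* and -1.01, -0.99 and -1.14 in *flor-1(icb93)*, and *col-43* was the remaining member called more negative in *flor-1(icb93)*.

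Before treatment, old-1 libraries had 10 members higher and 69 lower than N2 libraries, against a background of 15.7% and 23.3% of all genes, with a median of -0.70. The yolk genes (6 of 6) and the oocyte genes (8 of 8) were lower as well. For members with few counts, a ratio with a counting interval is more apt than a fitted fold. *col-19* had 3 counts in old-1 against 9206 in N2, a ratio of 3123 (95% counting interval 1068 to 15147), and *col-7* had 1 against 2625, a ratio of 2672 (95% interval 479 to 105564), all but a few of these N2 counts being in replicates B and C. With the yolk level as a covariate 28 members were called in place of 79, 9 higher and 19 lower, against 12.5% and 14.4% of all genes. Among the rises, *col-158* (V, 11829582 to 11831219) had 7.56, 6.82 and 6.18 CPM in old-1 against 2.35, 1.5 and 1.46 CPM in N2, with no overlap and at a low level (1.94, SE 0.33, adjusted p = 3.28e-04). *col-10* (0.71), *col-98* (0.81), *col-42* (0.80), *col-166* (0.65) and *col-103* (0.60) are abundant members that were higher in the mutant. The fit with the yolk covariate still called *col-98* (1.01), *col-42* (0.83) and *col-103* (0.73) higher, but not *col-10* (0.48) or *col-166* (0.32).

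flor-1 libraries had 3 members higher and 80 lower than N2 libraries, against a background of 20.9% and 19.8% of all genes, with a median of -1.06. Of the yolk genes 1 of 6 was higher here and none was called lower. The members called higher were *col-36*, *col-135* and *col-158*, all at low levels. *col-135* had 1.67 to 2.11 CPM in flor-1 against 0 to 0.384 CPM in N2, with no overlap (3.49, SE 0.64, adjusted p = 3.89e-04). *col-36* had 102 counts in flor-1 against 2 in N2, a ratio of 36.5 (95% counting interval 9.84 to 305), and 2.04 CPM of its level lay in replicate C against 0.227 and 0.268 CPM in the replicates A and B. The abundant members were low in all 6 *flor-1(icb93)* libraries: *col-3* had 740 to 1081 CPM there and 2221 to 2690 CPM in N2, and *col-10* had 396 to 594 CPM against 1032 to 1493 CPM. *col-41* (-2.90), *col-80* (-2.80), *col-156* (-2.47), *col-142* (-2.31) and *col-180* (-2.29) were further called members whose groups did not overlap. With limma on log2(TPM + 1), which changes the test as well as the scale, 3 members were higher and 51 lower with a median of -0.32, while 41.9% of all genes were called higher and 8.54% lower. Against N2 replicate A alone, 42 members were higher and 59 lower, against 24% and 23.3% of all genes. The furrow collagens, a separate set of 6 that shape the annular furrows, had 1 higher and 5 lower in flor-1.

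In flor-1 replicate C the dauer collagens stood out at a low level. *col-2*, used in dauer and pre-dauer larvae, had 2.44 CPM in that library and at most 0.699 CPM in any other. *col-40*, also of the dauer, had 2.42 CPM there and at most 0.914 CPM in any other. Since 1 library held these counts, the group means of such members rest on that library.

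In the old-1oe comparison, edgeR called 0 of 138 members against a background of 0.117% of all genes in either direction. DESeq2 called 26 members, 2 higher and 24 lower, against 3.48% and 5.43% of all genes, and limma called 0. The median was -0.35 over the members and 0.11 over all genes. The yolk level was 8.95 in old-1oe replicate A and 6.10 in oe_control replicate C, apart from their groups. Without old-1oe replicate A, 38 members were called, 9 higher and 29 lower, against 9.51% and 13.2% of all genes. Without oe_control replicate C, 0 were called higher and 1 lower, against 0.072% and 0.048% of all genes. In 2 of the 156 members all old-1oe libraries were above all oe_control libraries, and in 37 they were below, against 8.68% and 12.7% of all genes. *col-3* had 435 to 1238 CPM in old-1oe against 2180 to 2850 CPM in oe_control, with no overlap (-1.42, SE 0.36, adjusted p = 0.184), and *col-12*, whose promoter drives the reporter in these strains, had 110 to 247 CPM against 305 to 384 CPM (-0.78, SE 0.31, adjusted p = 0.253), with neither called.

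The last comparison set epidermal expression of *old-1* in dpy against hyg, and here the members fell in large number. Of 135 tested members, 77 were lower in dpy and 1 was higher, against a background of 20.9% of all genes called lower and 24.9% called higher. The median log2 fold change was -0.96 over the members and -0.09 over all genes, and 87 of the 156 members had no overlap with hyg and lay below it, with 1 above it, where 26.7% of all genes lay below and 25.7% above. Leaving out any library gave 69 to 77 called members. The yolk level was 12.19 to 12.99 in dpy against 12.70 to 13.72 in hyg. All 6 yolk genes had a negative fitted change (-0.76 to -0.29), with 0 of 6 called (4 of 6 with an unadjusted p under 0.05). Other tissue markers moved beside the collagens: 6 of 8 oocyte genes, 3 of 4 germline genes and 2 of 3 sperm genes were higher in dpy, with mean log2 CPM of the oocyte genes of 8.41 to 8.66 against 6.91 to 7.29, and 4 of 4 intestine, 3 of 3 body wall muscle, 2 of 2 pharynx and 2 of 3 neuron genes were lower. Of the 6 epidermis genes 1 was higher and 2 were lower. Their part in the result was not tested.

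**Figure D5:**
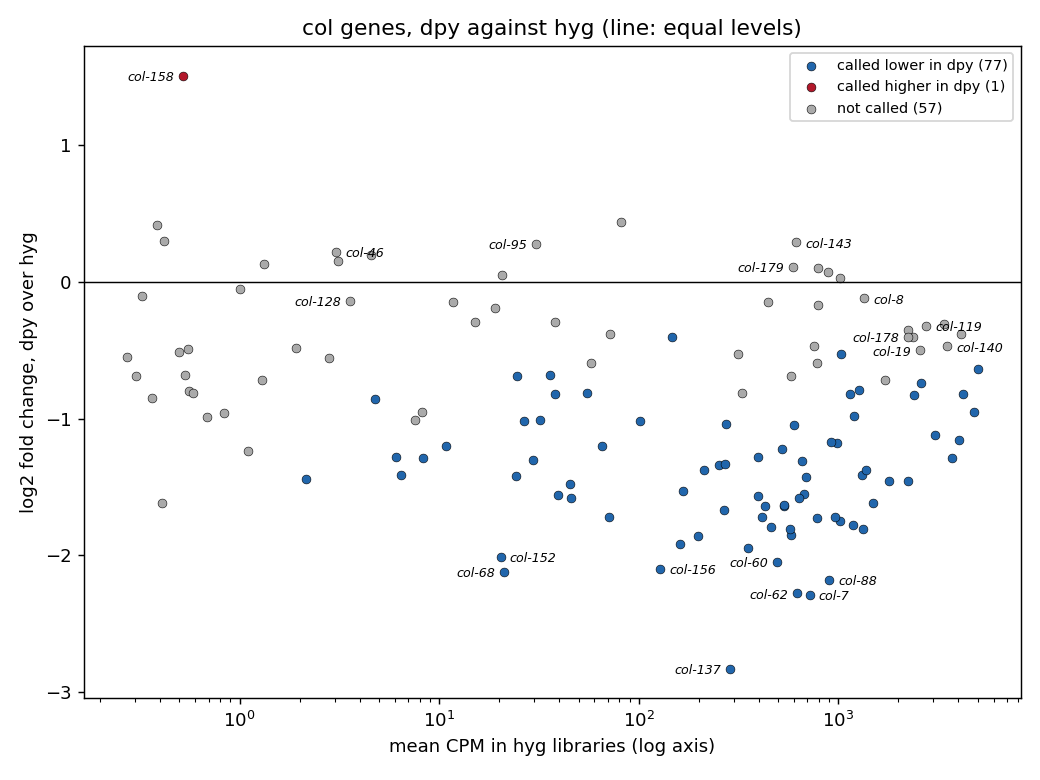
Log2 fold change of each tested *col* gene, dpy over hyg (y), against its mean CPM in hyg (x, log axis), n = 3 each, where color shows the call and the line equal levels. Most genes lie below the line (77 called lower), *col-158* alone is called higher, and *col-143* and *col-140* lie near the line.

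The adult member *col-7* had 169, 101 and 160 CPM in dpy against 564, 822 and 770 CPM in hyg, with no overlap (-2.29, SE 0.22, adjusted p = 3.89e-05). *col-137* fell most, with 44, 22.1 and 52.1 CPM in dpy against 262, 284 and 317 CPM in hyg (-2.83, SE 0.26, adjusted p = 3.6e-05). *col-12*, a late gene of the molting cycle, had 885, 515 and 965 CPM in dpy against 2192, 2338 and 2154 CPM in hyg (-1.46, SE 0.22, adjusted p = 4.87e-04). Further large falls were those of *col-62* (-2.28), *col-88* (-2.18), *col-68* (-2.12), *col-156* (-2.10), *col-60* (-2.05) and *col-152* (-2.01). *col-150* was lower as well, at 18.4 to 22.8 CPM in dpy against 62.2 to 80.4 CPM in hyg (-1.72, SE 0.13). *col-99*, a transmembrane collagen of neurons and not of the cuticle, was lower by less (-0.69, SE 0.14, adjusted p = 0.00257).

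The sets formed from the yolk slope differed in this comparison, in libraries that gave little of the slope. Of the 14 members whose slope changed sign, 13 were called lower in dpy, with a median of -1.72, and *col-176* was at 0.05. Of the 17 members with a positive slope in both experiments, 4 were called lower (*col-106*, *col-122*, *col-181* and *col-184*), with a median of -0.40 over the set. *col-19* had 1909, 1733 and 1660 CPM in dpy against 1975, 3108 and 2602 CPM in hyg (-0.50, SE 0.19, adjusted p = 0.0446 in edgeR's test), which was not called since the unadjusted p was above 0.01, and *col-140* had -0.47 (SE 0.21, adjusted p = 0.0851). *col-143* was at 0.29 (SE 0.25, not called). In the fit with the yolk level as a covariate, *col-106* (-0.35), *col-122* (-0.44), *col-181* (-0.40) and *col-184* (-0.42) were no longer called. That fit called *col-143* higher (0.88, SE 0.19). The 13 members called lower in the set of 14 were still called lower, from -2.80 for *col-152* to -1.15 for *col-110*. The difference between these sets was not itself tested. *col-158*, the member that rose, had 1.31, 1.61 and 1.49 CPM in dpy against 0.392, 0.379 and 0.787 CPM in hyg (1.51, SE 0.37, adjusted p = 0.00672).

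Other genes of collagen biology were compared beside the members. In dpy against hyg, 10 of 13 genes of collagen modification, processing and cross-linking were lower and 0 higher, with a median of -0.65. Among these are *dpy-18* (-1.35) and *phy-2* (-1.52), subunits of the enzyme that hydroxylates collagen prolines, and *bli-3* (-0.81), an oxidase that helps to cross-link the cuticle. Of the other named cuticle collagens, 5 of 12 tested were lower and 0 higher (median -0.72), while 0 of 6 furrow collagens were called in either direction (median -0.07). Molting regulators, such as nuclear hormone receptors that time the molts, had 2 of 13 higher and 3 lower, and molting effectors 0 of 8 higher and 3 lower. In N2_Ext against N2 the furrow collagens went the other way from most *col* genes, with 5 of 6 higher and 0 lower (median 0.72). Of all genes, 14.7% were called higher and 20.4% lower. The yolk level moved with this comparison too, and the furrow collagens were not set against N2 replicate A alone here. The processing genes were 2 of 13 higher and 5 lower. The slope on the yolk level over all libraries was negative for 5 of 6 furrow collagens, which are early genes of the molting cycle, and for 5 of 8 molting effectors and 6 of 13 regulators. All 6 yolk genes and 8 of 8 oocyte genes had a positive slope; the yolk genes define the level.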

How the data were processed

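RNA of whole animals was measured in 30 libraries. The deposited files hold, per transcript, the estimated counts that the authors made with kallisto against WormBase transcriptome WS283 (the kallisto version is not given in the sources used here), with length and effective length; these expected counts are not normalized between libraries. The authors tested with sleuth. Sequencing was done at more than 1 provider, and the sources used here do not say which libraries went where.

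Transcripts were joined to genes with Ensembl release 115 (WBcel235). Of them, 30413 matched by transcript name (63.3% of counts), 6630 by sequence name (36.7%), 12 had no match and 3 were ambiguous. Counts were summed per gene, rounded, filtered with filterByExpr (minimum count 5, minimum total 15), scaled by TMM and tested with edgeR 4.0.16 (quasi-likelihood, R 4.3.3) over all genes: 16850 in the 18 extract libraries fitted together, 16285 and 16141 in each overexpression experiment, and 17494 for the slope on the yolk level. Genes were called at p under 0.01 and a Benjamini-Hochberg adjusted p under 0.1. Not past any filter were *col-9*, *col-37*, *col-50*, *col-51*, *col-55*, *col-78*, *col-102*, *col-171* and *col-185*. The depth per library, 19214839 to 38956390 counts, limits low members, and counting intervals cover counting error only. TPM were computed from counts and effective lengths.

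The members and lists were chosen with earlier results of these data known. Named genes were up to 8 called members higher and 8 lower per comparison with the largest change, a mean of 5 CPM or more where the level was higher and groups that did not overlap, up to 10 by slope in each direction, the 10 with the highest median TPM, and members known from textbooks; others were chosen after their values were seen. Alternatives were DESeq2 1.42.0, RLE size factors, other filters and thresholds, limma 3.58.1 on log2(TPM + 1), the replicate block, the yolk level as a covariate, oocyte genes as the yolk level, other sets of libraries and leaving out each library. The tests were tried on simulated counts.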

Additional observations from a re-analysis of the deposited data

Results flagged for a closer look

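The extract response of the *col* genes differed between genotypes and was flagged by the test of that difference. In all, 55 members were called for *old-1(ok1273)* against N2 and 70 for *flor-1(icb93)* against N2. Of all genes, 18% were called more positive and 13.1% more negative for *old-1(ok1273)*, and 14.4% and 9.48% for *flor-1(icb93)*. For *old-1(ok1273)* the log2 differences were 9.24 for *col-140*, 9.20 for *col-137*, 9.17 for *col-181*, 8.69 for *col-63*, 8.69 for *col-60*, 8.47 for *col-20*, 8.33 for *col-122* and 8.27 for *col-81*, and -1.48 for *col-128* and -1.26 for *col-46*. For *flor-1(icb93)* they were 9.71 for *col-19*, 8.93 for *col-88*, 8.88 for *col-140*, 8.67 for *col-7*, 8.61 for *col-178*, 8.59 for *col-181*, 8.53 for *col-20* and 8.38 for *col-81*, and -3.86 for *col-43*, -1.01 for *col-128* and -0.99 for *col-46*. Both rest on the same N2 libraries, of which replicates B and C had yolk levels of 7.15 and 8.07 and replicate A -0.16.

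The slope on the yolk level differed between the overexpression libraries and the extract libraries for 49 of 147 members. It was more positive in the overexpression libraries for 7 and more negative for 42, against 13.6% and 17% of all genes, so the total is near the share of all genes. For the 14 members called positive in the extract libraries and negative in the overexpression libraries, the difference of the slopes was -1.36 for *col-38*, -1.45 for *col-49*, -1.62 for *col-60*, -1.47 for *col-63*, -1.30 for *col-71*, -1.01 for *col-79*, -1.55 for *col-88*, -1.05 for *col-110*, -1.46 for *col-120*, -0.40 for *col-133*, -1.43 for *col-138*, -1.48 for *col-152*, -1.46 for *col-175* and -0.48 for *col-176*. The yolk levels that gave the slopes ran from -0.16 to 8.07 in N2 and from 6.10 to 12.23 in old-1oe and oe_control.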

How the results depend on the processing

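The count of members called in dpy against hyg (78) stayed between 57 and 86 under all alternatives. For the counts in this section, the share of all genes called is given above for some settings only. The other counts show how the calls moved and cannot be set against the share of all genes. With the yolk level as a covariate the counts were 22 in place of 81 for N2_Ext against N2, 25 in place of 10 for old-1_Ext against old-1, 1 in place of 0 for flor-1_Ext against flor-1, 21 in place of 55 and 25 in place of 70 for the differences of the *old-1(ok1273)* and *flor-1(icb93)* responses from N2, 28 in place of 79 for old-1 against N2 and 23 in place of 0 for old-1oe against oe_control. Without N2 replicates B and C, a setting added after the data were seen, the counts were 31 for N2_Ext, 28 and 26 for the differences of the responses and 40 for old-1 against N2. With limma on TPM there were 36 for the *flor-1(icb93)* response and 54 in place of 83 for flor-1 against N2, and with all 30 libraries in one fit 3 for old-1_Ext, 44 for the *flor-1(icb93)* response and 47 for old-1oe. DESeq2 called 26 for old-1oe, against 3.48% of all genes called higher and 5.43% called lower. Requiring in addition a change of 1 or more on the log2 scale left 4 for old-1_Ext and 52 for old-1 against N2. The slope had 77 called members in place of 34 in the 18 extract libraries alone. Leaving out a library gave 70 to 91 for N2_Ext, 4 to 9 for old-1_Ext, 0 for flor-1_Ext, 41 to 81 and 55 to 88 for the differences of the responses, 72 to 89 for old-1 and 64 to 112 for flor-1 against N2, 0 to 38 for old-1oe, 69 to 77 for dpy and 29 to 54 for the slope.

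Of 1887 values of named genes under the alternatives, 162 lost the call and 7 changed direction. In the difference of the *old-1(ok1273)* response, the yolk covariate gave -0.11 for *col-140*, -0.63 for *col-122* and -0.54 for *col-81*, and leaving out N2 replicates B and C gave -0.15 for *col-122*. In the difference of the *flor-1(icb93)* response, leaving these out gave -0.06 for *col-140* and -0.17 for *col-178*. In old-1 against N2 the covariate gave 0.35 for *col-81*. When TPM replaced counts, the share of *col* genes in a library moved by more than the SD of its group in 10 libraries. The cause was not tested for any of these.

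The replicate letters gave no sign of paired samples: correlations of same-lettered deviations were -0.41 to 0.24. With 3 libraries per group these values cannot show that the samples were unpaired. With the replicate as a block the counts were 80 for N2_Ext, 8 for old-1_Ext, 0 for flor-1_Ext, 54 and 65 for the differences of the responses, 78 and 75 for old-1 and flor-1 against N2, 0 for old-1oe, 74 for dpy and 32 for the slope.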
